A study of Mus musculus with 6 samples.

Results

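Carbonic anhydrases are zinc enzymes that turn carbon dioxide and water into bicarbonate and a proton, and back again. In red cells the cytosolic enzymes Car1 and Car2 let blood carry carbon dioxide as bicarbonate, and both genes are switched on while red cell precursors mature. Elsewhere in bone, Car2 supplies the protons that osteoclasts pump out to dissolve mineral. The 8 genes described here are Car1, Car2, Car3, Car4, Car5b, Car8, Car12 and Car13, out of 23284 gene symbols in the deposited tables. They were taken by symbol, because Car1 stood among the genes with the largest excess in Lin- cells, one of the 2 marrow fractions of this study. The difference between fractions is therefore given below as a description, without a test.

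The study measured RNA in 2 fractions of marrow from C57BL/6 mice aged 12 weeks that were KO, Het or WT for Diap1, the gene of the actin-nucleating formin mDia1. Each pool held the marrow of 4 mice of 1 genotype. Cells carrying both Gr1 and Mac1, surface proteins of granulocytes and monocytes, were taken out with magnetic beads (the Gr1+Mac1+ fraction), and the rest was depleted of committed cells (the Lin- fraction). Each of the 6 groups, KO Lin-, Het Lin-, WT Lin-, KO Gr1+Mac1+, Het Gr1+Mac1+ and WT Gr1+Mac1+, is 1 library, so that differences between genotypes carry no replicate check. The labels give neither the sex of the mice nor the part of Diap1 that was removed.

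The family shares its active site. Car8 is known as a member without catalytic activity. In Car1 to Car5b, Car12 and Car13 a histidine codon, a spacer codon and a second histidine codon follow each other. Both histidines are among the residues that hold the zinc ion. The coding sequence around these codons is shown for each gene from the GENCODE vM21 transcripts (GRCm38, the assembly also called mm10), 5′ to 3′ on the coding strand, with the codons at the places of both histidines in capitals.
Car1 (chr3:14776275-14776295, minus strand): cagttcCATtttCACtggggc
Car2 (chr3:14895063-14895083, plus strand): cagtttCACtttCACtggggc
Car3 (chr3:14866844-14866864, plus strand): caattcCATcttCACtggggc
Car13 (chr3:14650700-14650720, plus strand): cagttcCATttgCACtggggg
Car5b (chrX:163991408-163991428, minus strand): cagtttCATtttCATtgggga
Car12 (chr9:66747641-66747661, plus strand): cagctgCACttgCACtggggg
Car4 (chr11:84964161-84964181, plus strand): cagttgCACctgCACtggtca
Car8 (chr4:8221607-8221627, minus strand): gaagttAGAtttCACtgggga
In 7 of the 8 genes both capital codons encode histidine, and in Car8 the first is AGA, an arginine codon. Over the whole coding sequence Car1 and Car2 were identical at 65.5% of 773 aligned bases, with a longest shared run of 15 bases. Over all pairs the identity lay between 56.4% and 68.3%, and the longest shared run, between Car2 and Car13, was 30 bases.

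The libraries held an implied 8567200 to 11505000 fragments, read from the width of the deposited intervals, and 10713 to 11235 genes had at least 1 FPKM (fragments per kilobase of transcript and of the library's mapped total). Diap1 had 6.07, 24.2 and 36.0 FPKM in the KO, Het and WT Lin- libraries, and 4.07, 34.1 and 57.1 FPKM in the KO, Het and WT Gr1+Mac1+ libraries. A list of 8 progenitor markers summed to 336 to 398 FPKM in Lin- cells and 146 to 160 FPKM in Gr1+Mac1+ cells. Myb, Gfi1b and Kit made up most of the sum in Lin- cells. In each pool 1 of the 8 went the other way: Ly6a, at 3.68 to 6.80 FPKM in Lin- and 37.4 to 52.4 FPKM in Gr1+Mac1+ cells. The 4 genes found for Gr1 and Mac1 summed to 36.5 to 151 FPKM in Lin- cells and 1976 to 2260 FPKM in Gr1+Mac1+ cells. The Het Lin- library stood apart. Its 13 neutrophil granule markers summed to 8400 FPKM, against 405 FPKM in KO Lin- and 361 FPKM in WT Lin- cells, so the fraction means of Car1, Car2 and Car3 and the limma results it shifts most are also given without the Het pool. Erythroid genes were abundant in the Lin- libraries: the 16 of 18 listed markers that were found summed to 1184 to 1250 FPKM, against 373 to 629 FPKM in Gr1+Mac1+ cells.

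Car1 (chr3:14766214-14808365, mm10) was one of the most abundant transcripts of the Lin- fraction. It had 1522 FPKM in KO, 1423 FPKM in Het and 1445 FPKM in WT Lin- cells, which placed it 80th, 82nd and 82nd among all genes. In Gr1+Mac1+ cells it had 31.3 FPKM in KO (deposited 95% interval 28.0 to 34.7), 37.8 FPKM in Het (34.5 to 41.2) and 54.5 FPKM in WT (50.7 to 58.4). All 3 Lin- libraries were high and close together, the Gr1+Mac1+ libraries were low and spread further apart, and the fractions did not overlap. The means were 1463 ± 51.9 FPKM in Lin- and 41.2 ± 12.0 FPKM in Gr1+Mac1+ cells (SD, n = 3 pools that differ in genotype), and without the Het pool 1483 and 42.9 FPKM. The log2 ratio of Lin- over Gr1+Mac1+ was 5.56 in the KO pool, 5.20 in the Het pool and 4.70 in the WT pool, on the log2(FPKM + 1) scale used for all log2 ratios here.

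Car2 (chr3:14886426-14900770), the faster of the red cell enzymes, stood just below Car1 in Lin- cells and well above it in Gr1+Mac1+ cells. It had 1448 FPKM in KO, 1282 FPKM in Het and 1336 FPKM in WT Lin- cells, against 114, 140 and 219 FPKM in the KO, Het and WT Gr1+Mac1+ libraries. The mean was 1355 ± 85.0 FPKM in Lin- and 157 ± 54.6 FPKM in Gr1+Mac1+ cells (SD, n = 3), or 1392 and 166 FPKM without the Het pool. Its log2 ratio between fractions was 3.66 in the KO pool, 3.18 in the Het pool and 2.61 in the WT pool, smaller than that of Car1 in each pool. In both genes the ratio was largest in the KO pool and smallest in the WT pool.

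**Figure D1:**
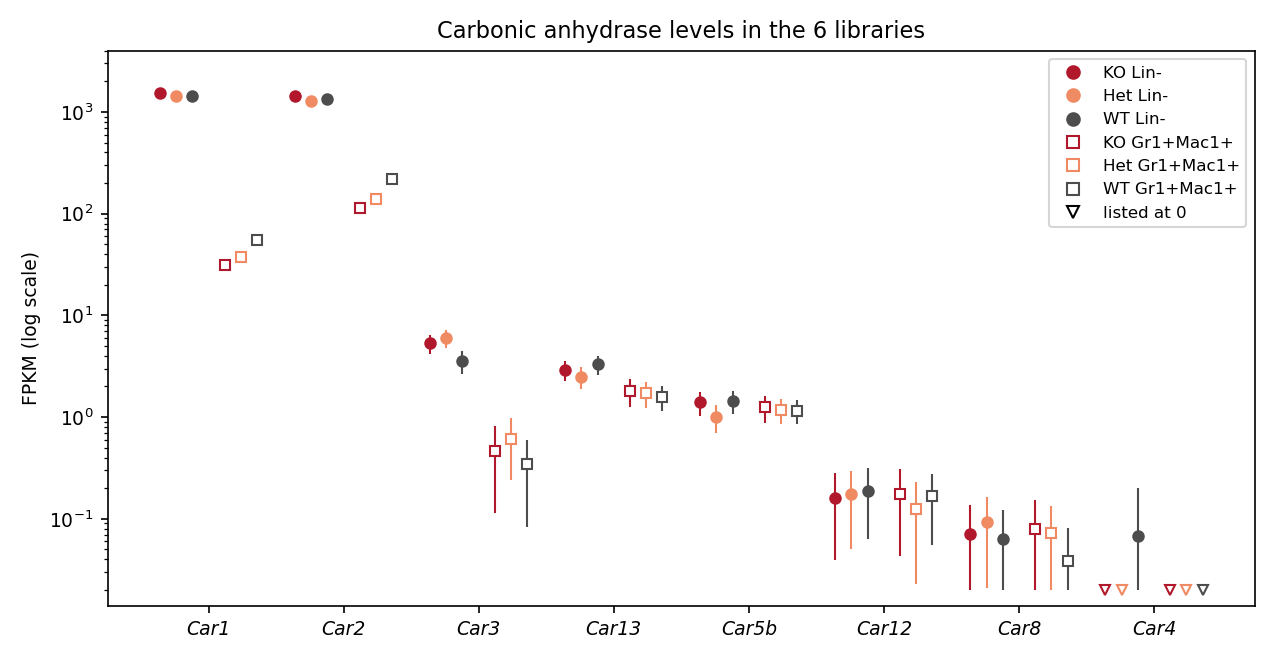
FPKM (log axis) of the 8 carbonic anhydrases in each library, with the deposited 95% intervals as bars; filled circles are Lin- and open squares Gr1+Mac1+ libraries, and zeros and bounds below the axis are drawn at its foot. Car1 and Car2 lie at 1282 FPKM or more in the Lin- libraries and between 31.3 and 219 FPKM in the Gr1+Mac1+ libraries, while the other 6 genes stay below 6 FPKM.

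Car3 (chr3:14863538-14872373), a cytosolic enzyme of low activity best known from muscle, fat and liver, was the third member in order. It had 5.29 FPKM in KO, 5.94 FPKM in Het and 3.55 FPKM in WT Lin- cells, which corresponds to 87, 103 and 64 implied fragments. In Gr1+Mac1+ cells it had 0.465, 0.609 and 0.343 FPKM in KO, Het and WT, from 7, 11 and 7 implied fragments. The fractions did not overlap, and the log2 ratio was 2.10, 2.11 and 1.76 in the KO, Het and WT pools. At this level the added pseudocount sets the ratio: its mean was 1.99 as given, 3.13 with a pseudocount of 0.1 and 0.85 with one of 5, and the FPKM themselves averaged 4.93 ± 1.24 in Lin- and 0.472 ± 0.134 in Gr1+Mac1+ cells (SD, n = 3). Without the Het pool the means were 4.42 FPKM in Lin- and 0.404 FPKM in Gr1+Mac1+ cells.

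Car13 (chr3:14641727-14663002), another cytosolic enzyme, had 2.93, 2.48 and 3.30 FPKM in KO, Het and WT Lin- cells, against 1.81, 1.72 and 1.58 FPKM in KO, Het and WT Gr1+Mac1+ cells. The Lin- values were all above the Gr1+Mac1+ values, but the deposited intervals were apart only in the WT pool, where the log2 ratio was 0.74. Among genes with at least 5 FPKM in the higher library, intervals were apart between fractions for 83.6%, 84.4% and 85.3% in the KO, Het and WT pools. Car13 is below that level, where intervals are wider, so these shares are no measure for it. Car5b (chrX:163976822-164028010), the mitochondrial enzyme, had 1.41, 1.01 and 1.43 FPKM in KO, Het and WT Lin- cells and 1.25, 1.18 and 1.16 FPKM in KO, Het and WT Gr1+Mac1+ cells, so that its fractions overlapped. Its gene lies on the X chromosome, and the pools differed in the X-inactivation transcript Xist. Xist had 38.7, 34.9 and 54.2 FPKM in the KO, Het and WT Lin- libraries. In the KO, Het and WT Gr1+Mac1+ libraries it had 19.9, 18.0 and 27.1 FPKM. The part of pool sex was not tested, in the Car5b values or in any comparison between genotypes below.

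The remaining 3 members were at or near the limit of detection. Car12 (chr9:66713686-66766845), a transmembrane enzyme that faces outward, lay between 0.125 and 0.188 FPKM in the 6 libraries, from 6 to 9 implied fragments each. Car8 (chr4:8141493-8239041), the member with the arginine codon shown above, lay between 0.0389 and 0.0927 FPKM. Car4 (chr11:84957754-84966054), which is tethered to the outer membrane, had 0.0670 FPKM from 1 implied fragment in WT Lin- cells and was listed at 0 in the other 5 libraries. No difference between fractions or genotypes was detectable for these 3 genes at this depth.

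In order of level, Lin- cells held Car1 and Car2 at about the same height, then Car3, Car13 and Car5b, then Car12, Car8 and Car4. Car1 exceeded Car2 in each Lin- library with intervals apart. In Gr1+Mac1+ cells the order was Car2, Car1, Car13, Car5b, Car3, Car12, Car8 and Car4. Car3 was thus above Car13 in 3 of 3 Lin- libraries and below it in 3 of 3 Gr1+Mac1+ libraries, although in WT Lin- cells the intervals of Car3 (2.66 to 4.44) and Car13 (2.62 to 3.98) overlapped. The ratio of Car2 to Car1 FPKM was 0.952, 0.901 and 0.924 in KO, Het and WT Lin- cells, and 3.63, 3.71 and 4.01 in KO, Het and WT Gr1+Mac1+ cells. Within a fraction the ratio hardly differed between genotypes, at 0.926 ± 0.0254 in Lin- and 3.78 ± 0.201 in Gr1+Mac1+ cells (SD, n = 3).

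By a rule of size, a gene counted as higher or lower between 2 libraries when the difference came to 2-fold or more on the log2(FPKM + 1) scale, and it had at least 5 FPKM in the higher library, and had intervals that did not overlap. Between fractions Car1 and Car2 passed it in all 3 pools and Car3 in the KO and Het pools, where 26.6% (KO pool), 26.3% (Het pool) and 27.2% (WT pool) of all genes at 5 FPKM passed it as higher in Lin- cells. Car3 missed it in the WT pool only because its higher value, 3.55 FPKM, was under 5. Since the genes were chosen on this contrast, nothing is read from that count. The other 5 members did not reach 5 FPKM in any library.

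The same genes were then compared between genotypes, which the choice of members did not use. In Gr1+Mac1+ cells Car1 and Car2 were lowest in KO, intermediate in Het and highest in WT. The KO library had 57.4% of the WT level of Car1 (95% counting interval of the ratio 0.507 to 0.651) and 52.0% of the WT level of Car2 (0.494 to 0.547). The log2 ratios of KO over WT were -0.78 for Car1 (counting SE 0.09) and -0.94 for Car2 (0.04), which is short of 2-fold in both, so neither passed the rule of size. Among the 8309 genes tested in this comparison, 0.181% passed the rule and 12.9% had intervals apart. Car2 stood 57th and Car1 88th from the low end of the 8309 log2 ratios.

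Het Gr1+Mac1+ cells had 69.3% of the WT level of Car1 and 64.1% of the WT level of Car2. The log2 ratios of Het over WT were -0.52 for Car1 (counting SE 0.08) and -0.64 for Car2 (0.03), with intervals apart for both, as for 20.3% of the 8282 genes tested; 0.157% of them passed the rule of size. Between KO and Het the intervals of Car1 overlapped (log2 ratio -0.26, counting SE 0.10), and those of Car2 did not (-0.30, 0.04), where 23% of genes tested had intervals apart and 0.18% passed the rule. These comparisons share libraries and are not independent of each other.

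The sum of the erythroid markers had the same order in these libraries, at 373 FPKM in KO, 439 FPKM in Het and 629 FPKM in WT Gr1+Mac1+ cells. The log2 ratio of KO over WT was negative for all 16 markers, with a median of -0.87 against 0.01 for all genes, and spanned -1.08 for Klf1, a red cell transcription factor, to -0.01 for Icam4, a red cell adhesion protein. The ratio of Het over WT was also negative for all 16, with a median of -0.49. For KO over Het it was negative for 13 and positive for 3 markers (Tfrc, Icam4 and Epor), with a median of -0.33. Car1 amounted to 0.0841, 0.0861 and 0.0868 of the erythroid marker sum in KO, Het and WT Gr1+Mac1+ cells, so that relative to these markers the genotypes differed by little. Car2 amounted to 0.305, 0.319 and 0.348 of the sum in KO, Het and WT, rising in that order. The markers Slc4a1 and Alas2, described below, made up much of the sum. They had 162 and 124 FPKM in WT and 87.0 and 90.3 FPKM in KO Gr1+Mac1+ cells. In bulk libraries fewer cells of a type and less RNA per cell cannot be told apart, and the part of a carried-over erythroid population in the Car1 and Car2 values was not tested.

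**Figure D2:**
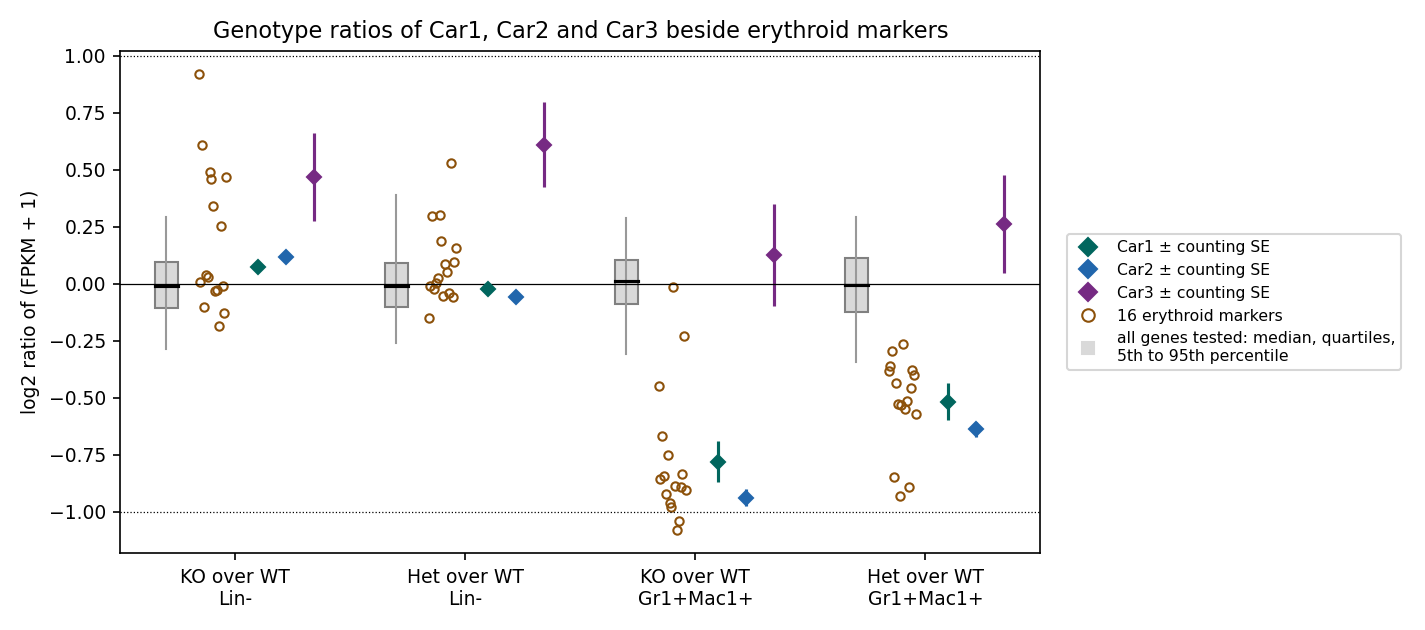
Log2 ratio of (FPKM + 1) of KO over WT and Het over WT in each fraction for Car1, Car2 and Car3 (diamonds with counting SE), 16 erythroid markers (open circles) and all genes tested (grey boxes with median and quartiles, lines to the 5th and 95th percentile); dotted lines mark 2-fold. In Gr1+Mac1+ cells Car1 and Car2 lie at -0.78 and -0.94 in KO over WT, among the erythroid markers, and in Lin- cells at 0.07 and 0.12.

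The fractions differed more than the genotypes in the level of Car1 and Car2 relative to the erythroid markers. Car1 was 1.22, 1.15 and 1.22 times the marker sum in KO, Het and WT Lin- cells, against the values below 0.1 in Gr1+Mac1+ cells. Car2 was 1.16, 1.04 and 1.13 times the sum in KO, Het and WT Lin- cells. The erythroid markers themselves did not move as 1 block between fractions. Alas2, the first enzyme of heme synthesis in red cells, and Slc4a1, the red cell chloride-bicarbonate exchanger, had lower values in Lin- than in Gr1+Mac1+ cells in each pool. The log2 ratio was -1.29, -2.43 and -2.66 for Alas2 in the KO, Het and WT pools, and 3.83, 3.31 and 2.87 for Ermap, a red cell surface protein.

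**Figure D3:**
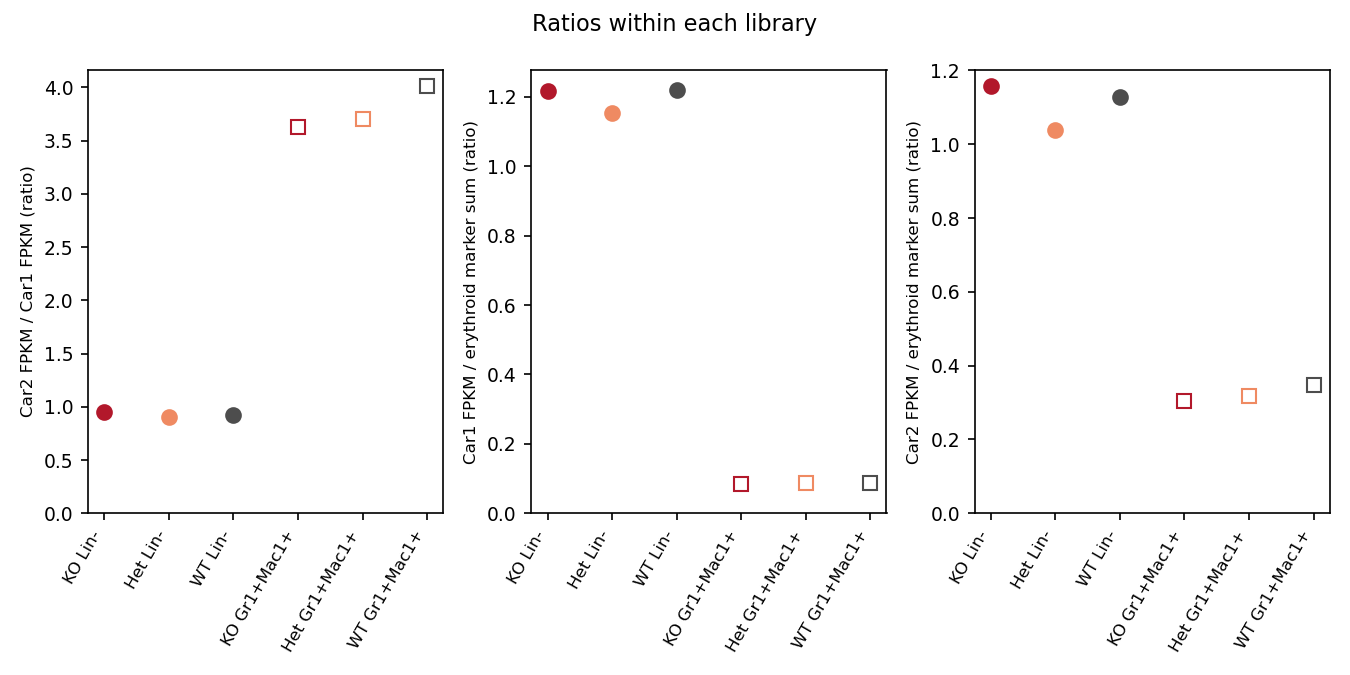
Ratios of FPKM within each library: Car2 over Car1, Car1 over the sum of 16 erythroid markers, and Car2 over the same sum (y axes from 0; filled circles Lin-, open squares Gr1+Mac1+). Each ratio varies less across genotypes within a fraction than between fractions. Car2 over the sum rises from 0.305 in KO to 0.348 in WT Gr1+Mac1+ cells. Car2 over Car1 lies near 0.926 in Lin- and 3.78 in Gr1+Mac1+ cells.

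In Lin- cells Car1 and Car2 were close to equal across genotypes. KO had 105% of the WT level of Car1 and 108% of that of Car2, with log2 ratios of 0.07 (counting SE 0.01) and 0.12 (0.01). At these fragment numbers even such small differences had intervals apart, as did those of 16.4% of the 8217 genes tested, while 0.207% passed the rule of size. Het had 98.4% of the WT level of Car1, with overlapping intervals, and 96.0% of that of Car2, with intervals apart; 16.4% of the 8323 genes tested had intervals apart and 1.75% passed the rule. For KO over Het the log2 ratios were 0.10 for Car1 and 0.18 for Car2, with intervals apart for both. Of the 8329 genes tested, 11.8% had intervals apart and 1.61% passed the rule. The erythroid markers had median log2 ratios of 0.03 for KO over WT and 0.04 for Het over WT in this fraction.

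Car3 differed more from WT than the other members did in Lin- cells. The log2 ratio was 0.47 for KO over WT (counting SE 0.19, intervals overlapping) and 0.61 for Het over WT (0.19, intervals apart). In each of these comparisons 16.4% of genes tested had intervals apart. The value for Het over WT rests on the Het Lin- library with its neutrophil transcripts. For KO over Het the log2 ratio of Car3 was -0.14 (0.18, intervals overlapping), where 11.8% of genes tested had intervals apart. It was smaller than the 0.26 of Car5b, whose intervals also overlapped. The sum of 8 osteoblast and stromal markers had the order of Car3 in both fractions. In Gr1+Mac1+ cells that order of Car3 is not resolved: it rests on 7, 11 and 7 implied fragments in KO, Het and WT, with overlapping intervals. The marker sum was 416, 660 and 345 FPKM in KO, Het and WT Lin- cells. In KO, Het and WT Gr1+Mac1+ cells it was 20.0, 27.0 and 13.2 FPKM. The collagen genes Col1a1 and Col1a2 and the osteoblast gene Bglap made up most of the sum, and not every marker kept the order in Lin- cells: Cxcl12 had 4.25, 2.85 and 2.69 FPKM and Lepr 3.002, 3.14 and 3.74 FPKM in KO, Het and WT. The order was not particular to this list in either fraction. Neutrophil granule markers summed to 405, 8400 and 361 FPKM, and eosinophil markers to 22.5, 459 and 16.7 FPKM, in KO, Het and WT Lin- cells. The part of any of these markers in the Car3 values was not tested. Of 10 adipocyte and muscle markers, Plin1, Lep, Myh2 and Myh4 were at 0 in all 6 libraries, and Acta1, the skeletal muscle actin, was the one marker with a mean of at least 1 FPKM, at 7.97 to 9.29 FPKM in Lin- and 20.3 to 26.6 FPKM in Gr1+Mac1+ cells. The whole list summed to 8.57 to 9.79 FPKM in Lin- and 21.2 to 28.6 FPKM in Gr1+Mac1+ cells. Car13 and Car5b had overlapping intervals in all 6 genotype comparisons. In total, 0 of the 8 members passed the rule of size between genotypes, beside 0.157% to 1.75% of all genes tested in a comparison. With 3 members at 5 FPKM in the Lin- and 2 in the Gr1+Mac1+ comparisons, nothing is read from that count.

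For Car2, osteoclasts are the other marrow cell known for a high level. Of 9 osteoclast markers, Calcr, the calcitonin receptor, was at 0 in all 6 libraries, and Ocstamp, Dcstamp and Atp6v0d2 were at 0 in all 3 Lin- libraries. Acp5, the acid phosphatase of osteoclasts and macrophages, had 17.9 to 22.2 FPKM in Lin- and 20.7 to 30.8 FPKM in Gr1+Mac1+ cells, and Itgb3, an integrin subunit that platelets and their precursors also carry, had 10.6 to 25.7 FPKM in Lin- and 15.9 to 17.5 FPKM in Gr1+Mac1+ cells. Ctsk, also on the list, had 0.315 to 0.419 FPKM in Lin- and 3.04 to 4.96 FPKM in Gr1+Mac1+ cells. Atp6v0d2 had 0.268 to 0.621 FPKM in Gr1+Mac1+ cells. Acp5 and Itgb3 made up most of the list. Its sum was 29.7, 48.5 and 35.7 FPKM in KO, Het and WT Lin- cells. In KO, Het and WT Gr1+Mac1+ cells it was 42.5, 49.1 and 54.3 FPKM.

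Car13, Car1, Car3 and Car2 lie next to each other on chromosome 3 within 259 kb, with gaps of 103 kb, 55.2 kb and 14.1 kb. Car3 lies between the 2 most abundant members, and its level in Lin- cells was below 6 FPKM beside neighbours at 1282 FPKM or more. On the Car13 side, 1810022K09Rik had 162, 147 and 161 FPKM in KO, Het and WT Lin- cells, against 61.2, 61.1 and 62.5 FPKM in KO, Het and WT Gr1+Mac1+ cells. Lrrcc1 and E2f5, a cell cycle transcription factor, were also higher in each Lin- library, at 5.85 to 6.88 and 2.45 to 2.72 FPKM in Lin- against 4.08 to 4.60 and 1.25 to 1.71 FPKM in Gr1+Mac1+ cells. Gm6300 lay between 2.63 and 3.05 FPKM in Lin- and between 4.19 and 4.71 FPKM in Gr1+Mac1+ cells.

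Beyond Car2 the next genes had little or no signal in Lin- cells. A930001A20Rik reached 0.126 FPKM in WT Lin- cells. Gm9733 had 0, 0.738 and 0 FPKM in KO, Het and WT Lin- cells, against 37.8, 38.1 and 32.7 FPKM in KO, Het and WT Gr1+Mac1+ cells. Sirpb1a, a myeloid receptor gene, had 0.0261, 0.706 and 0.0476 FPKM in KO, Het and WT Lin- cells, against 13.6, 10.97 and 14.0 FPKM in KO, Het and WT Gr1+Mac1+ cells. The Het Lin- library was the highest of its fraction for both genes. Ralyl and Slc7a12, on the Car13 side, were listed at 0 in all 6 libraries.

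**Figure D4:**
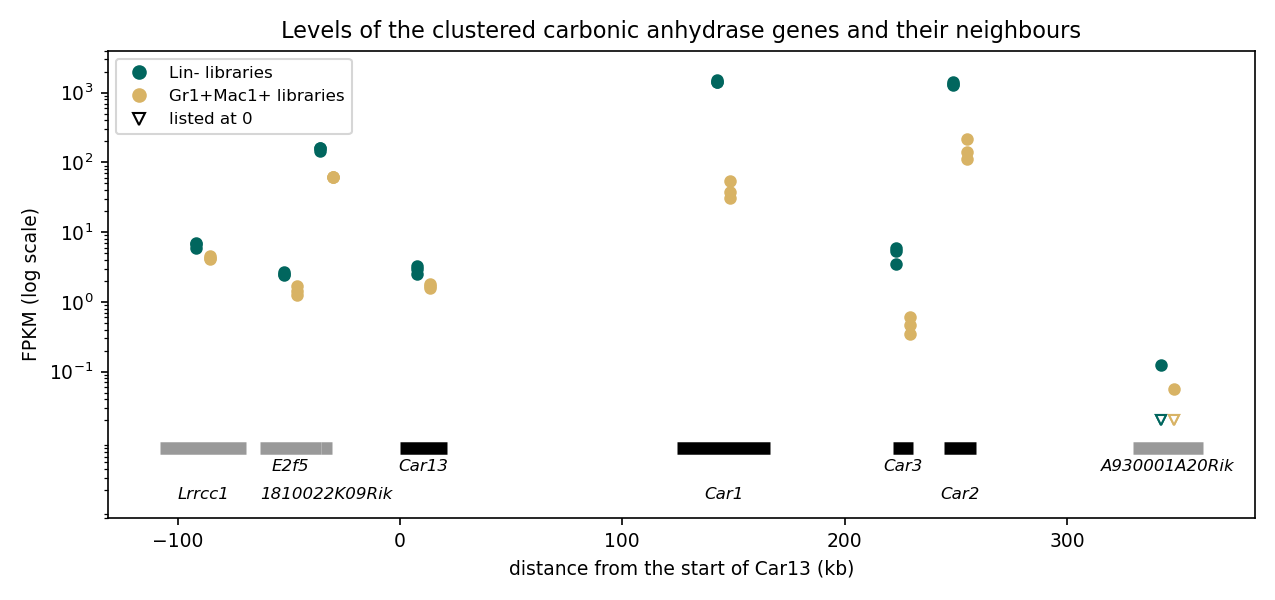
FPKM (log axis) of the 4 clustered carbonic anhydrase genes and their nearest neighbours against distance from the start of Car13 in kb, 1 point per library, with gene bodies as bars below (black for carbonic anhydrases) and zeros as open triangles. Car1 and Car2 stand at 1282 FPKM or more in Lin- cells on either side of Car3, which stays below 6 FPKM.

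The family has 8 more genes in the tables, none of which reached 3 FPKM. Car1 and Car2 together held 99.4% of the summed FPKM of the 16 genes in each Lin- library, and 93.7%, 93.9% and 96.2% in KO, Het and WT Gr1+Mac1+ cells. Car5a, the second mitochondrial enzyme, lay between 1.74 and 2.22 FPKM in the 6 libraries. Car9, a transmembrane enzyme induced by low oxygen, averaged 1.30 ± 0.300 FPKM in Lin- and 1.97 ± 0.247 FPKM in Gr1+Mac1+ cells, and Car15, a membrane-anchored enzyme, 2.23 ± 0.669 and 1.99 ± 0.733 FPKM (SD, n = 3). In limma, where the pool was a block, with Benjamini-Hochberg adjustment over 11404 genes, 0 of these 3 differed between fractions. Car9 came nearest, with a log2 ratio of -0.38 (SE 0.14, adjusted p = 0.0589, unadjusted p = 0.0488), and 82.1% of all genes tested differed. Without the Het pool its log2 ratio was -0.39 (limma adjusted p = 0.114), and that of Car15 was 0.15 (limma adjusted p = 0.702).

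Car7, a cytosolic enzyme known from brain, was too low for that test. It had 0.786, 0.286 and 0.991 FPKM in KO, Het and WT Lin- cells (13, 5 and 18 implied fragments), and 0, 0.110 and 0.0973 FPKM in KO, Het and WT Gr1+Mac1+ cells. Each Lin- value was above each Gr1+Mac1+ value. Car14, a transmembrane enzyme, had 0.738, 0.914 and 0.776 FPKM in KO, Het and WT Lin- cells, against 0.558, 1.70 and 1.10 FPKM in KO, Het and WT Gr1+Mac1+ cells. Car6, the secreted salivary enzyme, and Car10 and Car11, relatives without catalytic activity, stayed below 0.2 FPKM in all 6 libraries.

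Bicarbonate and protons made by these enzymes leave the cell through other proteins, so the transporters of bicarbonate, protons, lactate, water and gases were compared between fractions with limma. Of 26 listed genes, 17 had a mean of at least 1 FPKM. Of these, 8 were higher and 8 lower in Lin- than in Gr1+Mac1+ cells, against 51.8% higher and 30.3% lower of all 11404 genes. The median log2 ratio of the 17 was -0.06, and that of all genes 0.34. The split of all genes depends on the scaling. After rescaling by the median ratio, 4085 genes were higher and 4771 lower in Lin- cells, and of the transporters 7 and 9.

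The 4 with the largest excess in Lin- cells were red cell or anion transport genes. Aqp1, the red cell water channel, averaged 526 ± 9.81 FPKM in Lin- and 67.4 ± 20.0 FPKM in Gr1+Mac1+ cells, with a log2 ratio of 2.98 (SE 0.16, limma adjusted p = 0.000136, 3 of 3 pools). Slc26a1, a sulfate and anion exchanger, averaged 15.6 ± 0.804 FPKM in Lin- and 0.622 ± 0.299 FPKM in Gr1+Mac1+ cells (log2 ratio 3.37, SE 0.13, limma adjusted p = 0.000101). Rhag and Rhd, proteins of the red cell Rh complex, had log2 ratios of 2.45 (SE 0.20) and 2.02 (SE 0.19), with limma adjusted p of 0.000371 and 0.000575. All 3 pools had the same direction for each of these genes.

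The 4 with the largest deficit in Lin- cells included a bicarbonate exchanger. Slc4a1, which trades the bicarbonate made by carbonic anhydrase for chloride in red cells, averaged 30.5 ± 5.79 FPKM in Lin- and 122 ± 37.9 FPKM in Gr1+Mac1+ cells (log2 ratio -1.94, SE 0.25, limma adjusted p = 0.00159), the opposite direction to Car1 and Car2. Hvcn1, the voltage-gated proton channel of phagocytes, averaged 5.79 ± 1.90 FPKM in Lin- and 74.5 ± 3.87 FPKM in Gr1+Mac1+ cells (log2 ratio -3.51, SE 0.16, limma adjusted p = 0.000107). Slc16a3, a lactate and proton exporter, had a log2 ratio of -3.83 (SE 0.29, limma adjusted p = 0.000314), and Slc9a3r1, a scaffold protein of sodium-proton exchangers, one of -2.04 (SE 0.07, limma adjusted p = 0.000101). The direction was the same in all 3 pools for each. Without the Het pool the log2 ratio was -4.25 for Slc16a3 and -3.73 for Hvcn1, with limma adjusted p of 3.5e-05 and 2.89e-05.

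Across genotypes 2 of the 26 transporters passed the rule of size, with 11 to 14 of them at 5 FPKM in a comparison. Rhag had 12.7 FPKM in KO, 14.2 FPKM in Het and 27.2 FPKM in WT Gr1+Mac1+ cells, a log2 ratio of -1.04 for KO over WT, where 0.181% of all genes tested passed. Slc16a3 had 2.85, 7.22 and 2.05 FPKM in KO, Het and WT Lin- cells, with log2 ratios of 1.43 for Het over WT and -1.10 for KO over Het, where 1.75% and 1.61% of all genes passed; both rest on the Het Lin- library. Aqp1 followed the order of Car1 and Car2 in Gr1+Mac1+ cells without passing the rule, at 53.6 FPKM in KO, 58.3 FPKM in Het and 90.3 FPKM in WT. Slc4a1 had 87.0 FPKM in KO, 118 FPKM in Het and 162 FPKM in WT Gr1+Mac1+ cells.

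The V-ATPase, the proton pump that Car2 feeds in osteoclasts and that acidifies lysosomes in most cells, was mainly higher in Gr1+Mac1+ cells. Of 22 listed subunits and accessory proteins 18 were tested, of which 1 was higher and 12 lower in Lin- cells. Of all 11404 genes 51.8% were higher and 30.3% lower. The median log2 ratio was -0.77 for the 18, against 0.34 for all genes. Tcirg1, the membrane subunit used by osteoclasts, averaged 13.9 ± 1.47 FPKM in Lin- and 84.2 ± 5.21 FPKM in Gr1+Mac1+ cells (log2 ratio -2.52, SE 0.06, limma adjusted p = 0.000101). Next came Atp6v0b at -1.43, Atp6v1b2 at -1.41 and Atp6ap2 at -1.05. The subunit higher in Lin- cells was Atp6v0a2, at 17.9 ± 0.259 FPKM in Lin- and 14.4 ± 0.679 FPKM in Gr1+Mac1+ cells (log2 ratio 0.29, limma adjusted p = 0.0109). It was not called without the KO or the WT pool. After rescaling by the median ratio 0 subunits were higher and 16 lower in Lin- cells, beside 4085 and 4771 of all genes. Across genotypes 0 of the 17 V-ATPase genes at 5 FPKM passed the rule of size in each comparison, beside 0.157% to 1.75% of all genes.

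**Figure D5:**
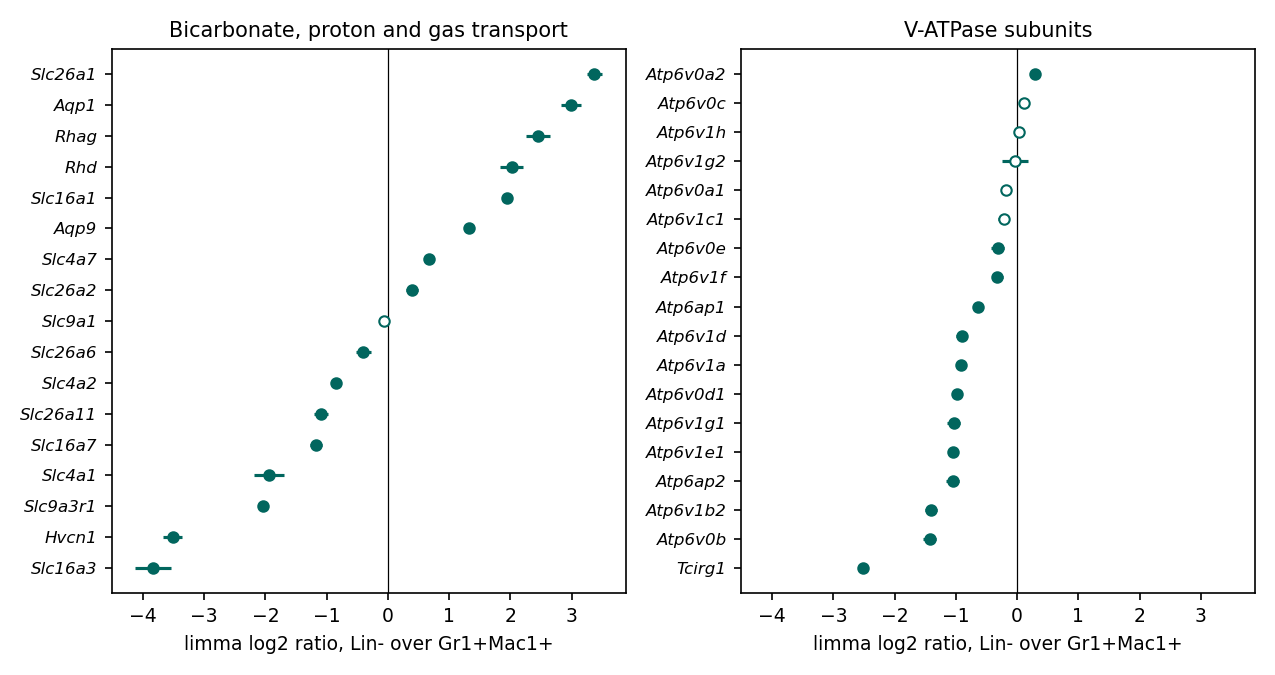
Limma log2 ratio of Lin- over Gr1+Mac1+ (± SE) for 17 transporters of bicarbonate, protons, lactate, water and gases (left) and 18 V-ATPase subunits (right); filled points have adjusted p below 0.05. Transporters spread from -3.83 for Slc16a3 to 3.37 for Slc26a1, while V-ATPase subunits lie mostly below 0.

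The genes most like Car1 and Car2 across the 6 libraries were not the same. Likeness was the root mean square difference of log2(FPKM + 1) after each gene was centred on its own mean, over 7929 genes with a mean of at least 5 FPKM. Nearest to Car1 were Atp1b2, a sodium pump subunit (0.14), Mt2, a metallothionein (0.23), Pklr, the pyruvate kinase of liver and red cells (0.31), Sphk1, a sphingosine kinase (0.35), and Prss50 (0.45). Nearest to Car2 were Pla2g12a, a phospholipase (0.06), Add2, an adducin of the red cell membrane skeleton (0.10), Tmem56 (0.10), and Gata1 and Klf1, transcription factors of the red cell line (0.11 each).

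Car2 stood 60th in likeness to Car1, and Car1 stood 1464th in likeness to Car2, at a difference of 1.003. The measure counts the size of a difference between fractions as well as its direction. Both genes were higher in Lin- cells, with a mean log2 ratio of 5.15 for Car1 and 3.15 for Car2. Gata1 had 124, 124 and 122 FPKM in KO, Het and WT Lin- cells, against 11.4, 13.5 and 19.9 FPKM in KO, Het and WT Gr1+Mac1+ cells. Atp1b2 had 136, 125 and 161 FPKM in KO, Het and WT Lin- cells, against 2.30, 2.48 and 5.02 FPKM in KO, Het and WT Gr1+Mac1+ cells. Both share with Car1 and Car2 the order KO, Het, WT from low to high in Gr1+Mac1+ cells. Since they were picked for likeness over these same libraries, nothing is read from the shared order. Car4, listed at 0 in all but 1 library, had no pattern to match, and its nearest genes, Ankfy1, Sdf4, Fau, Taf8 and Dak, were those with nearly level values across the libraries (differences of 0.019 to 0.029).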

How the data were processed

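Per the file headers, the authors deposited an FPKM for each gene locus, bounds on it and a status flag. The submitters' processing notes name TopHat2 2.0.7, Cufflinks 2.0.2 and build mm10; which tool did what, and with which annotation, is not given in the sources used here. An FPKM divides by the library total, and the 10 most abundant genes held 8.88% to 9.68% of FPKM in Lin- and 25.6% to 28.5% in Gr1+Mac1+ libraries. Of 23746 loci, 702 share a symbol with another and were left out of comparisons. Implied fragment numbers come from the bounds, read as 2 SD to each side: among genes under 50 fragments, 61.9% to 63.9% were whole within 0.05. Intervals cover counting error only.

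With 1 library per group, genotypes were compared by the rule of size, with status OK required in both libraries. For the fractions limma 3.58.1 was used (R 4.3.3, trend, pool as a block, mean FPKM of at least 1, Benjamini-Hochberg adjusted p under 0.05), which was tested on simulated data. The labels' protocols take both fractions from the same pooled mice, hence the block; their deviations from the fraction means correlated across genes by -0.01 (KO), -0.04 (Het) and 0.11 (WT). Since each pool has its own genotype, the residual spread includes genotype effects on the fraction difference.

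Members, gene lists and rules were chosen with earlier results of these data known. Named were all members, relatives at 0.5 FPKM or more, up to 4 transporters and 4 V-ATPase genes per direction past limma and those past the rule of size, the 5 genes most like Car1, Car2 and Car4, genes within 500 kb of the cluster, and examples of markers. Alternatives were pseudocounts of 0.1 and 5, 3-fold, other level filters, no interval criterion, rescaling, no block, and each pool left out. Scripts ran in Python 3.11.15 with biopython 1.88, pandas 2.3.3, numpy 2.4.6 and matplotlib 3.10.9.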

Additional observations from a re-analysis of the deposited data

Results flagged for a closer look

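Between KO and WT, the log2 ratios of Car1 and Car2 had opposite signs in the 2 fractions, though the Lin- libraries were close to equal. Deposited intervals, which cover counting error only, were apart in both fractions. The same held for 16.4% of all genes tested in Lin- and 12.9% in Gr1+Mac1+ cells. In Lin- cells 70.7% of genes tested had a ratio at or below that of Car1, and 79.1% one at or below that of Car2. For Car1 the log2 ratio of KO over WT was 0.074 in the Lin- libraries and -0.78 in the Gr1+Mac1+ libraries. For Car2 it was 0.117 in the Lin- libraries and -0.94 in the Gr1+Mac1+ libraries. Each value compares 1 library with 1 other, and the difference between the fractions was not tested.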

How the results depend on the processing

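Under each alternative run 0 members passed the rule of size between genotypes. Summed over the 6 genotype comparisons 340 genes passed, against 202 with a pseudocount of 5, 195 at 3-fold, 776 without the interval criterion and 610 from 1 FPKM. Summed over the 3 fraction comparisons 12610 passed, against 6714 at 3-fold. Car3 no longer passed between fractions with a pseudocount of 5 or after rescaling, and passed in the WT pool as well from 1 FPKM. Rescaling by the median ratio shifted the fractions by 0.45 to 0.48 log2 and turned the limma split of 5908 genes higher and 3450 lower in Lin- cells into 4085 and 4771; the mean log2 ratio of Car1 was then 4.69 in place of 5.15, and those of Car5b, Car8 and Car12, which did not exceed their spread, became negative. V-ATPase genes higher in Lin- cells numbered 2 with no filter and 0 after rescaling, and 0 to 1 with each pool left out (0 without the KO or the WT pool). Transporters higher in Gr1+Mac1+ cells numbered 5 from a mean of 5 FPKM, since fewer were tested. Without the replicate block, limma called 6030 genes higher and 3507 lower in Lin- cells. With each pool left out the counts were 5338 to 5682 higher and 3128 to 3324 lower. Depth limits the values of all members other than Car1 and Car2.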
